A study of Mus musculus with 8 samples.

Results

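Retinoic acid (RA) is made from vitamin A in 2 oxidation steps, and 10 genes that encode enzymes of these steps were examined in the uteri of *Ezh2* conditionally deleted mice. *Rdh1*, *Rdh9*, *Rdh10*, *Rdh11*, *Dhrs9* and *Adh1* encode the 6 enzymes placed in the first step, from retinol to retinaldehyde. *Aldh1a1*, *Aldh1a2*, *Aldh1a3* and *Aldh3b2* encode the 4 placed in the second step, from retinaldehyde to RA. The genes were found by symbol in the annotation of the deposited comparison table and joined by Entrez identifier to the raw count files of the 8 libraries. They are 10 of the 27179 genes counted, and all 10 were among the 16658 genes that passed the filter on low counts (CPM, counts scaled to the library total, over 0.2 in 4 or more libraries).

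RNA-seq was performed on whole uteri at postnatal day 10 (PD10), with 4 libraries per genotype, each from the uteri of a mouse of its own as far as the methods tell. Both genotypes carried floxed *Ezh2* alleles (*Ezh2* f/f). Controls carried no Cre in their label, and cKO mice also carried *Amhr2*-Cre, written Acre in the labels, on a mixed C57BL/6 and 129SvEv background. *Ezh2* encodes the histone methyltransferase of Polycomb repressive complex 2. *Amhr2*-Cre is active in cells that descend from the mesenchyme of the reproductive tract, whereas the libraries hold RNA of every uterine cell type, so epithelial RNA and RNA of cells without Cre were counted as well.

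In the cell, retinol is oxidised reversibly by membrane-bound retinol dehydrogenases of the short-chain dehydrogenase/reductase (SDR) family and by cytosolic alcohol dehydrogenases. Retinaldehyde is then oxidised irreversibly by cytosolic retinaldehyde dehydrogenases, the ALDH1A enzymes, and RA binds nuclear receptors that regulate transcription. In the female reproductive tract, RA is known for guiding Müllerian duct differentiation and for keeping the uterine epithelium simple rather than squamous.

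The libraries held between 25287141 and 36685807 counts, so that 3 counts in a library corresponded to 0.0824 to 0.117 CPM. *Ezh2* itself was at 49.5, 40.5, 54.7 and 35.4 CPM in controls 1 to 4 and at 30.4, 38.0, 40.7 and 38.0 CPM in cKO 1 to 4, with overlapping groups (log2 fold change -0.29, SE 0.13, adjusted p = 0.247 in edgeR's quasi-likelihood fit). Counts over the whole gene include exons outside the floxed region. The uterine markers *Hoxa10*, *Hoxa11*, *Esr1*, *Pgr* and *Amhr2* were detected in all libraries, and *Hoxa10*, *Hoxa11* and *Amhr2* were lower in cKO by 0.62, 0.49 and 0.73 on the log2 scale with adjusted p-values of 0.000377, 0.00522 and 0.0148. None of 12 markers of simple epithelium passed both thresholds (fold change over 2 and adjusted p under 0.05), and their summed level was 1646 to 1906 CPM in controls and 1783 to 2179 CPM in cKO. Of 4 gland markers, *Foxa2* fell by 2.91 and *Cxcl15* fell by 3.83 on the log2 scale, *Sox17* was higher by 0.35 with an adjusted p of 0.0211, and *Wfdc3* was too low to be tested. Adipocyte genes set libraries apart within the cKO group. The summed level of 7 of them (*Adipoq*, *Fabp4*, *Plin1*, *Cidec*, *Adrb3*, *Cfd* and *Pparg*) was 3.38 to 5.11 CPM in controls, 90.4, 209.4 and 95.3 CPM in cKO 1 to 3, and 5.46 CPM in cKO 4. This sum leaves out *Lpl*, which was abundant in controls. With *Lpl*, the 8 genes summed to 102.2 to 113.6 CPM in controls, 244.4, 433.0 and 246.5 CPM in cKO 1 to 3, and 116.6 CPM in cKO 4. *Adrb3* and *Pparg* passed both thresholds, and *Adrb3* was at 2.10 CPM in cKO 4 against 0.915 to 1.18 CPM in controls, so it was high in cKO 4 as well. *Adipoq* had 1 count in cKO 4 and 301 to 708 counts in the other cKO libraries. None of the markers of stroma, smooth muscle, mesothelium, endothelium, macrophages, stratified squamous epithelium, urothelium, oviduct or ovary passed both thresholds. By the adjusted p alone, stromal *Col3a1* was higher in cKO (adjusted p = 0.0454), and 4 marker genes outside the adipocyte list separated the groups without passing it. The urothelial genes *Upk1a* and *Upk2* and the epithelial *Krt19* were higher in every cKO library than in every control, and *Foxj1* of ciliated cells was lower (log2 fold change -0.78, adjusted p = 0.0766). The part of gland and adipocyte RNA in the results on the enzymes was not tested beyond the values given beside them.

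Of the 10 enzyme genes, 6 moved past both thresholds in *Ezh2 Amhr2*-Cre cKO uteri, against 1.3% of all genes tested. *Rdh1*, *Rdh9*, *Aldh1a1* and *Aldh1a3* were the 4 that fell (0.636% of all genes tested), and *Dhrs9* and *Aldh3b2* were the 2 that rose (0.666%). *Rdh10* fell by less than 2-fold, which made 7 of 10 past the adjusted p threshold alone, against 5.34% of all genes tested (2.62% higher and 2.71% lower). In 8 of 10 enzymes, 6 lower and 2 higher, the control and cKO libraries did not overlap, which held for 12.3% of all genes tested (6.43% lower and 5.9% higher). The median log2 fold change over all genes tested was 0.00044. In bulk uterine RNA, fewer cells of a type and less RNA per cell cannot be told apart.

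**Figure D1:**
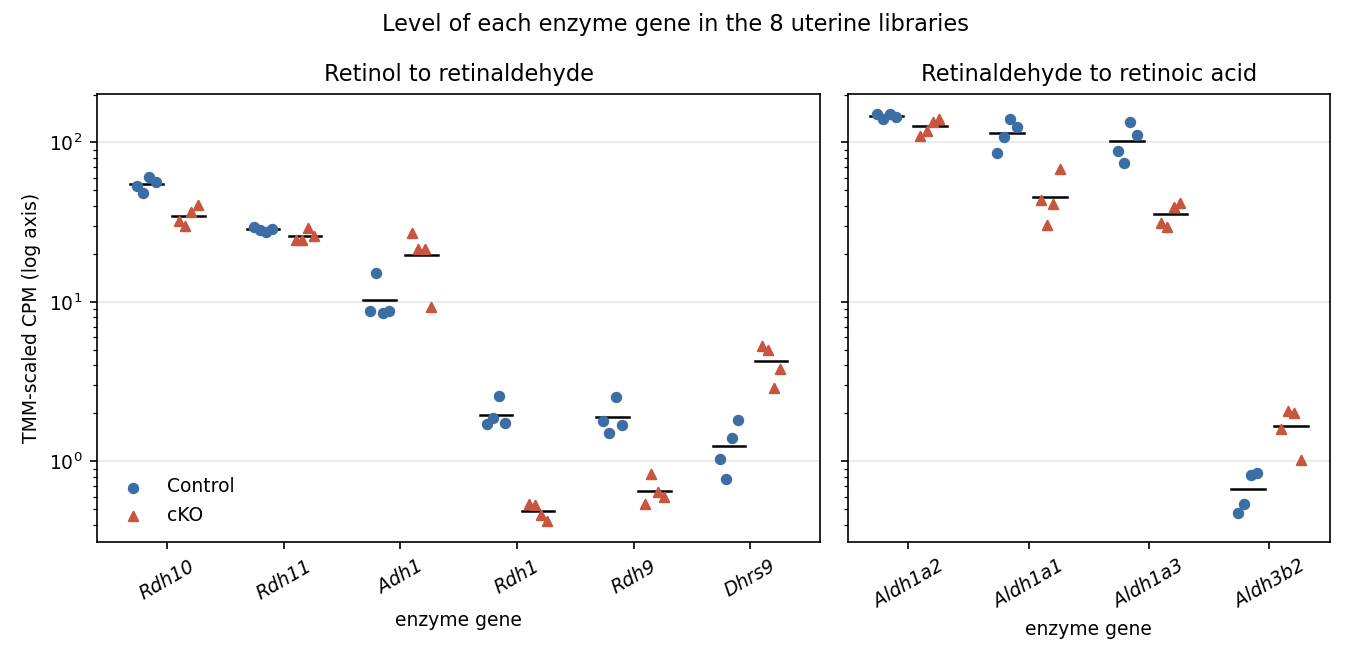
TMM-scaled CPM (log axis) of each enzyme gene in the 4 control libraries (circles) and the 4 cKO libraries (triangles), with group means as lines, for the first step (left) and the second step (right). *Rdh1*, *Rdh9* and *Aldh1a3* lie lower in every cKO library and *Dhrs9* higher, whereas *Rdh11* and *Adh1* overlap between genotypes.

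In controls, *Rdh10* had the highest level of the first-step enzymes per kb of transcript. RDH10 is the retinol dehydrogenase that embryos need for RA synthesis, and its gene lies at chr1:16105882-16132550 (+, GRCm38). *Rdh10* was at 53.3, 48.3, 60.9 and 56.9 CPM in controls 1 to 4. In cKO 1 to 4 it was at 32.3, 29.8, 36.6 and 40.6 CPM. All cKO libraries lay below all controls, and cKO 4 lay closest to them. The fall was 1.58-fold (log2 fold change -0.66, SE 0.10, adjusted p = 0.00231), and the adjusted p was between 0.00083 and 0.0153 when any single library was left out.

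*Rdh11* (chr12:79174233-79191855, -) encodes a microsomal retinaldehyde reductase that can also oxidise retinol. It was at 29.6, 28.2, 27.5 and 28.6 CPM in controls and at 24.5, 24.4, 29.0 and 25.9 CPM in cKO 1 to 4. Among cKO libraries, cKO 3 lay inside the control range and the other cKO libraries below it. The log2 fold change was -0.13 (SE 0.07, adjusted p = 0.313), with a 95% interval of the cKO to control ratio of 0.818 to 1.02.

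*Rdh1* and *Rdh9* encode closely related SDR enzymes that oxidise retinol, and they are neighbours on the same strand of chromosome 10 (*Rdh1* at chr10:127759726-127768299 and *Rdh9* at chr10:127776405-127792697). The annotation places a further gene, *Rdh16f1*, over both on that strand. The coding sequences of *Rdh1* and *Rdh9* have 951 bases each and were 92.1% identical, with a longest identical run of 105 bases, and 13.5% of the 50-base windows of *Rdh1* also occurred in *Rdh9*. The stretch around that run, coding bases 169 to 288 in exon 1 of each gene, is shown because reads from it can hardly be told apart. Sequences are from GENCODE M21 transcripts on GRCm38, and capitals mark the 1 base of 120 that differs.
*Rdh1* chr10:127760106-127760225 (+): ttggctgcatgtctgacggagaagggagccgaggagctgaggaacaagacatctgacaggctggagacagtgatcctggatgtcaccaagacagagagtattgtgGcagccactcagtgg
*Rdh9* chr10:127776653-127776772 (+): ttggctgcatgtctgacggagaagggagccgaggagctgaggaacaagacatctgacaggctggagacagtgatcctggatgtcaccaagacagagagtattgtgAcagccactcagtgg
Since the handling of reads that match several genes is not given in the sources used here, the separate levels of the pair are uncertain.

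In controls 1 to 4, *Rdh1* was at 1.70, 1.86, 2.57 and 1.73 CPM, from 48 to 72 counts. In cKO 1 to 4 it was at 0.544, 0.535, 0.462 and 0.420 CPM, from 12 to 16 counts. Every cKO library lay below every control, and the cKO libraries varied little among themselves. *Rdh1* fell 3.98-fold (95% interval of the cKO to control ratio 0.177 to 0.357, log2 fold change -1.99, SE 0.23, adjusted p = 0.000377). The adjusted p was between 0.000629 and 0.00221 when any single library was left out.

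*Rdh9* was at 1.80, 1.51, 2.53 and 1.70 CPM in controls 1 to 4, from 39 to 71 counts, and at 0.544, 0.837, 0.647 and 0.595 CPM in cKO 1 to 4, from 14 to 25 counts. Control 3 was the highest library for both genes of the pair, and no cKO library reached the control range of either. *Rdh9* fell 2.85-fold (log2 fold change -1.51, SE 0.24, adjusted p = 0.00319). In cKO 4, where most adipocyte genes were near the control level, *Rdh1* had 12 counts, against 14 to 16 in cKO 1 to 3. These counts are too few to rank the cKO libraries. *Rdh9* in cKO 4 lay within the range of the other cKO libraries.

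*Dhrs9* (chr2:69380462-69403086, +) encodes an SDR enzyme that oxidises retinol, as well as some steroids. It was at 1.04, 0.774, 1.39 and 1.81 CPM in controls 1 to 4, from 20 to 66 counts. In cKO 1 to 4 it was at 5.32, 5.02, 2.90 and 3.78 CPM, from 94 to 150 counts. Every cKO library exceeded every control, cKO 3 by the smallest margin. The rise was 3.33-fold (log2 fold change 1.74, SE 0.26, adjusted p = 0.00239), and its adjusted p ranged from 0.00159 to 0.0136 with single libraries left out.

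*Adh1* (chr3:138277585-138290698, +) encodes the class I alcohol dehydrogenase, a cytosolic enzyme that clears excess retinol and is abundant in liver and fat. It was at 8.77, 15.3, 8.56 and 8.73 CPM in controls 1 to 4 and at 26.9, 21.6, 21.5 and 9.25 CPM in cKO 1 to 4. In cKO 1 to 3 the level was above all controls, whereas in cKO 4 it lay between controls 1 and 2. The log2 fold change was 0.95 (SE 0.33, 95% interval 0.18 to 1.71, adjusted p = 0.153). Without cKO 4 it was 1.18 with an adjusted p of 0.00755. With only cKO 4 set against the controls, an arm of 1 library assumed to vary like the controls, the log2 fold change was -0.15. The libraries with high *Adh1* in the cKO group were those with high adipocyte genes, and with a score of the 8 adipocyte genes, *Lpl* included, as a covariate the log2 fold change of *Adh1* was -0.13 (SE 0.31). That score was high only in cKO 1 to 3, so the covariate fit rests mostly on cKO 4 as well. The part of adipocyte RNA in the *Adh1* result was not tested. An antisense gene, *Gm16559*, overlaps *Adh1*, as opposite-strand genes overlap *Aldh1a1* and *Aldh1a2*, and the strand setting of the counting is not given in the sources used here.

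**Figure D2:**
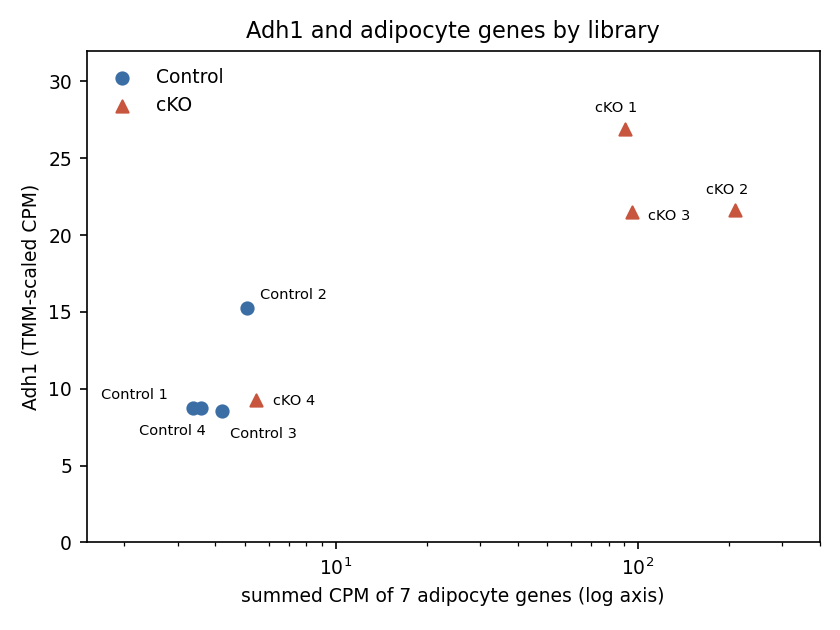
TMM-scaled CPM of *Adh1* (vertical axis) against the summed CPM of 7 adipocyte genes (horizontal log axis) in each control library (circles) and cKO library (triangles). Libraries cKO 1 to 3 lie at 21.5 to 26.9 CPM of *Adh1* and at 90.4 to 209.4 CPM of adipocyte genes, and cKO 4 lies at 9.25 CPM of *Adh1* and 5.46 CPM of adipocyte genes, beside the controls.

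The 6 enzymes of the first step summed to 98.8 ± 3.48 CPM in controls and 86.0 ± 5.38 CPM in cKO (SD, n = 4), 12.9% lower with no overlap. A share of this sum is the CPM of an enzyme as a percentage of the CPM of all enzymes of its step, given as a description with no test. *Rdh10* took 55.5% ± 3.71 of the sum in controls and 40.7% ± 6.80 in cKO, where cKO 4 (50.4%) overlapped the lowest control (50.3%). *Adh1* took 9.11%, 15.9%, 8.28% and 8.78% in controls 1 to 4 and 29.9%, 26.3%, 23.6% and 11.5% in cKO 1 to 4. The share of *Rdh11* was 28.9% ± 1.76 in controls and 30.2% ± 2.29 in cKO. The shares in controls and cKO were 1.98% ± 0.345 and 0.571% ± 0.0684 for *Rdh1*, 1.90% ± 0.385 and 0.768% ± 0.177 for *Rdh9*, and 1.26% ± 0.432 and 4.97% ± 1.35 for *Dhrs9*. On the scale of CPM per kb, which allows enzymes to be compared, *Rdh1*, *Rdh9* and *Dhrs9* took 1.54%, 2.15% and 0.906% in controls and 0.388%, 0.763% and 3.10% in cKO, so that *Dhrs9* was the lowest of the 3 in controls and the highest in cKO.

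Divided by transcript length, the sum of the first step was 32.4 ± 1.08 CPM per kb in controls and 32.3 ± 4.14 CPM per kb in cKO, with overlapping groups. The short *Adh1* transcript (1.492 kb) weighs more on this scale. Without *Adh1* the sum was 25.5 ± 1.68 CPM per kb in controls and 19.0 ± 1.51 CPM per kb in cKO, 25.4% lower with no overlap. That sum was 20.5 CPM per kb in cKO 4, the highest of the cKO libraries, against 23.3 CPM per kb in the lowest control. Leaving out *Adh1* was chosen after its values were seen.

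**Figure D3:**
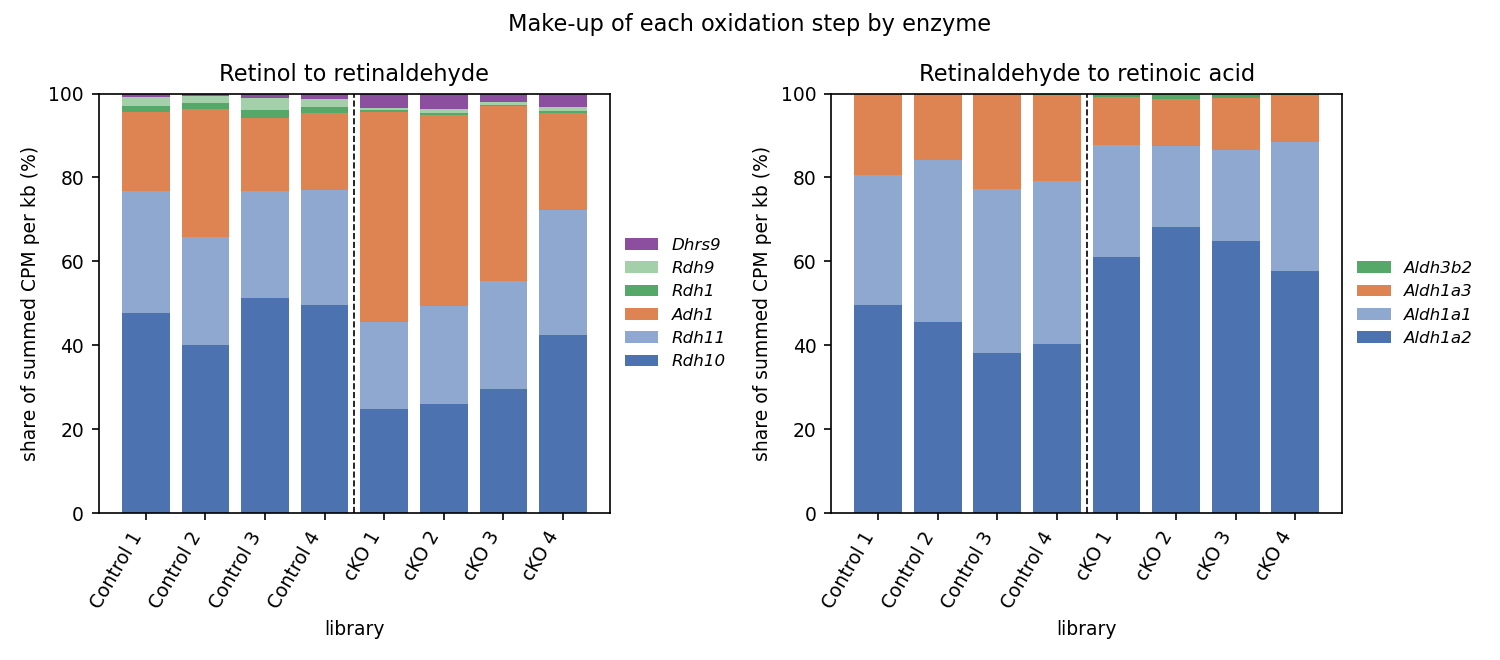
Share of each enzyme in the summed CPM per kb of its step (vertical axis, %) in each library, controls left and cKO right of the dashed line, for the first step (left panel) and the second step (right panel). *Aldh1a2* fills 62.9% of the second step in cKO on average and 43.4% in controls, and *Adh1* fills 40.1% of the first step in cKO and 21.3% in controls, with cKO 4 inside the control range for *Adh1*.

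In the second step, *Aldh1a2* (chr9:71215789-71296243, +) had the highest level per kb of transcript in both genotypes. ALDH1A2 is the retinaldehyde dehydrogenase of mesenchymal tissues and of the early embryo. It was at 150.2, 141.2, 151.2 and 144.2 CPM in controls 1 to 4 and at 110.4, 118.1, 134.9 and 141.1 CPM in cKO 1 to 4. The groups did not overlap, but cKO 4 and control 2 lay next to each other. The log2 fold change was -0.22 (SE 0.07, 95% interval -0.38 to -0.06, adjusted p = 0.112), and without cKO 4 it was -0.28 with an adjusted p of 0.0294.

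*Aldh1a1* (chr19:20492583-20643463, +) encodes a retinaldehyde dehydrogenase of epithelia, stem cells and fat. It was at 85.4, 108.8, 140.8 and 125.5 CPM in controls 1 to 4 and at 43.4, 30.5, 41.0 and 68.0 CPM in cKO 1 to 4. All cKO libraries were below all controls, with cKO 4 the highest of the cKO and control 1 the lowest of the controls. The fall was 2.52-fold (log2 fold change -1.33, SE 0.26, adjusted p = 0.0312). This call depended on single libraries. The adjusted p ranged from 0.00225 without cKO 4 to 0.0949, and it was above 0.05 when control 2, 3 or 4 or cKO 1 or 3 was left out. The log2 fold change ranged only from -1.59 to -1.18 over these. With cKO 4 alone against the controls it was -0.76. The neighbouring *Aldh1a7*, whose coding sequence was 91.6% identical to that of *Aldh1a1*, was at 9.51 ± 0.902 CPM in controls and 8.24 ± 0.534 CPM in cKO (log2 fold change -0.21, SE 0.10, adjusted p = 0.275).

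*Aldh1a3* (chr7:66390892-66427477, -) encodes a retinaldehyde dehydrogenase typical of epithelia. In controls 1 to 4 it was at 88.2, 74.2, 135.4 and 111.0 CPM. In cKO 1 to 4 it was at 31.5, 29.5, 39.6 and 41.7 CPM. The highest cKO library, cKO 4, lay below the lowest control, control 2. *Aldh1a3* fell 2.87-fold (log2 fold change -1.52, SE 0.20, adjusted p = 0.00361), and the adjusted p stayed between 0.00161 and 0.0187 when any single library was left out. In cKO 4 alone the log2 fold change against the controls was -1.29. The coding sequences of *Aldh1a1*, *Aldh1a2* and *Aldh1a3* were 68.2% to 69.9% identical in pairs and shared 0 windows of 50 bases.

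*Aldh3b2* (chr19:3972328-3981665, +) encodes a membrane-bound aldehyde dehydrogenase that acts chiefly on lipid-derived aldehydes, so its place in RA synthesis is less well defined than that of the ALDH1A enzymes. It was at 0.473, 0.542, 0.821 and 0.851 CPM in controls 1 to 4, from 14 to 31 counts, and at 1.59, 2.07, 2.00 and 1.02 CPM in cKO 1 to 4, from 29 to 65 counts. The groups did not overlap, and cKO 4 lay just above control 4. The rise was 2.47-fold (log2 fold change 1.31, SE 0.29, adjusted p = 0.0204). Its adjusted p was between 0.00532 and 0.0755 with single libraries left out, and it was above 0.05 without control 1, cKO 2 or cKO 3. In cKO 4 alone the log2 fold change was 0.59.

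The second step lost level in every cKO library. Its 4 enzymes summed to 324.2, 324.7, 428.1 and 381.6 CPM in controls 1 to 4 and to 186.9, 180.0, 217.5 and 251.8 CPM in cKO 1 to 4, a mean 42.7% lower with no overlap. Per kb of transcript the mean was 40.9% lower (150.9 ± 19.2 against 89.1 ± 14.3 CPM per kb, SD, n = 4). *Aldh1a2* took 46.3%, 43.5%, 35.3% and 37.8% of the summed CPM in controls 1 to 4 and 59.1%, 65.6%, 62.0% and 56.0% in cKO 1 to 4. Its share was thus higher in every cKO library than in every control, while its own level was no higher in any. *Aldh1a3* went from 27.7% ± 3.70 to 17.0% ± 0.837 without overlap. *Aldh1a1* went from 31.4% ± 3.39 to 21.5% ± 4.53, with cKO 4 (27.0%) above control 1 (26.3%). The share of *Aldh3b2* was 0.182% ± 0.0332 in controls and 0.832% ± 0.313 in cKO, so its rise added little to the sum.

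Levels of different enzymes were ordered per kb, first of the transcript and then of merged exons. Per kb of transcript in controls, *Aldh1a2* (64.8 ± 2.13 CPM per kb) and *Aldh1a1* (56.1 ± 11.6) led with overlapping libraries, followed by *Aldh1a3* (29.7 ± 7.79) and *Rdh10* (15.3 ± 1.5). *Rdh11* (8.73 ± 0.273) and *Adh1* (6.93 ± 2.21) came next and overlapped each other. All were well above *Rdh9*, *Rdh1*, *Aldh3b2* and *Dhrs9*, at means of 0.699, 0.50, 0.314 and 0.293 CPM per kb. In cKO, *Aldh1a2* (55.7 ± 6.30) stood alone at the top, and *Aldh1a1* (22.3 ± 7.74), *Adh1* (13.3 ± 5.02), *Aldh1a3* (10.3 ± 1.75) and *Rdh10* (9.71 ± 1.33) each overlapped the next in the order, down to *Rdh11* (7.96 ± 0.660), which lay above the remaining enzymes without overlap. *Dhrs9*, at 0.994 CPM per kb, overlapped *Aldh3b2* (0.780) as it did in controls, and both stood above *Rdh9* and *Rdh1*, at 0.243 and 0.12 CPM per kb. The level of *Aldh1a1* and its overlap with its neighbours depended on the length used, while it came after *Aldh1a2* on either. Divided by the merged exons of all annotated transcripts (4937 bases, against 2053 in the transcript above), a choice made after the data were seen, *Aldh1a1* was at 23.3 ± 4.81 CPM per kb in controls, below *Aldh1a2* without overlap and overlapping *Aldh1a3* (22.1 ± 5.81). In cKO it was at 9.26 ± 3.22 CPM per kb on that scale, overlapping *Adh1* (8.88 ± 3.35), and *Rdh10* (8.37 ± 1.15) stood before *Aldh1a3* (7.70 ± 1.30) with overlapping libraries. In controls *Rdh11* and *Adh1* no longer overlapped on that scale. The share of *Aldh1a1* in the second step was 36.9% in controls and 24.6% in cKO per kb of transcript, and 21.0% and 12.4% per kb of merged exons. The groups did not overlap on either scale.

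Because most adipocyte genes were high in cKO 1 to 3 and not in cKO 4, the size of each change was also computed from cKO 4 alone, a choice made after the values were seen. Against the controls, cKO 4 alone gave log2 fold changes of -2.21 for *Rdh1*, -1.65 for *Rdh9*, 1.57 for *Dhrs9* and -1.29 for *Aldh1a3*, beside -1.99, -1.51, 1.74 and -1.52 from all 8 libraries. It gave -0.43 for *Rdh10*, -0.76 for *Aldh1a1* and 0.59 for *Aldh3b2*, beside -0.66, -1.33 and 1.31. In that comparison 0 of 10 enzymes and 22 of all genes passed both thresholds (0.132%). The adipocyte score was -1.36 to -0.988 in controls, 1.68 to 2.57 in cKO 1 to 3 and -1.14 in cKO 4. It thus followed genotype apart from cKO 4, so a fit with it rests mostly on cKO 4 and is no separate check. With the adipocyte score as a covariate, 1 of 10 enzymes, *Rdh1*, and 34 of all genes (0.204%) passed. The log2 fold changes under the covariate were -2.25 for *Rdh1*, -1.73 for *Rdh9*, 1.54 for *Dhrs9* and -1.23 for *Aldh1a3*, with SEs of 0.32 to 0.42, and -0.39 for *Rdh10*, which then had an adjusted p of 0.296, -0.72 for *Aldh1a1* and 0.59 for *Aldh3b2*. Without cKO 4, 7 of 10 enzymes and 336 of all genes (2.02%) did. The part of adipocyte RNA in these differences was not tested.

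Beyond these enzymes, 39 genes of vitamin A uptake, storage, oxidation, reduction and RA breakdown were listed, of which 25 were tested and 14 were under the filter. Of the 25, 3 fell and 1 rose past both thresholds, beside 0.636% and 0.666% of all genes tested, with a median log2 fold change of -0.01. *Stra6*, which encodes the membrane receptor that takes retinol up from its plasma carrier, was at 75.7 to 101.7 CPM in controls and 31.9 to 41.7 CPM in cKO (log2 fold change -1.27, SE 0.11, adjusted p = 7.03e-05). Its relative *Stra6l*, which encodes a receptor for the same carrier, was at 1.10 to 1.89 CPM in controls and 0.339 to 0.602 CPM in cKO (log2 fold change -1.61, SE 0.27, adjusted p = 0.00391). *Cyp26a1*, which encodes an RA-degrading cytochrome P450 and is induced by RA, was at 1.80, 1.90, 2.03 and 1.37 CPM in controls 1 to 4 and at 0.194, 0.201, 0.616 and 0.455 CPM in cKO 1 to 4. It fell 4.69-fold (log2 fold change -2.23, SE 0.33, adjusted p = 0.00179). *Crabp1*, which encodes a cytosolic RA-binding protein, was at 20.3 to 48.0 CPM in controls and 76.0 to 100.8 CPM in cKO (log2 fold change 1.36, SE 0.27, adjusted p = 0.0331). In all 4 genes the groups did not overlap, as in 12.3% of all genes tested. The *Crabp1* call was above an adjusted p of 0.05 without control 1 or 3 or cKO 1, 2 or 3, with a highest value of 0.0905. With the adipocyte covariate *Stra6* alone of the 4 stayed past both thresholds, at log2 fold changes of -1.26 for *Stra6*, -1.60 for *Stra6l*, -1.85 for *Cyp26a1* and 1.39 for *Crabp1*.

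Among 6 tested genes of uptake, transport and binding, 1 rose and 2 fell past both thresholds (0.666% and 0.636% of all genes tested). Of 2 tested genes of RA breakdown, *Cyp26a1* was the 1 that fell, and *Cyp26b1* had a log2 fold change of 0.15 (SE 0.22, adjusted p = 0.749). None of the other lists held a gene past both thresholds, nor past the adjusted p alone. These were 3 other retinol-oxidising genes (highest by CPM *Adh5*, log2 fold change -0.08, SE 0.05), 5 genes of retinaldehyde reductases (highest *Dhrs3*, 0.04, SE 0.12), 6 other aldehyde-oxidising genes (highest *Aldh2*, -0.01, SE 0.06) and 3 genes of ester storage and carotenoid cleavage (highest *Dgat1*, 0.16, SE 0.13). *Rdh7*, *Rdh16*, *Rdh16f2*, *Rdh19*, *Hsd17b6* and *Adh4* were under the filter, with at most 5 counts in any library.

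**Figure D4:**
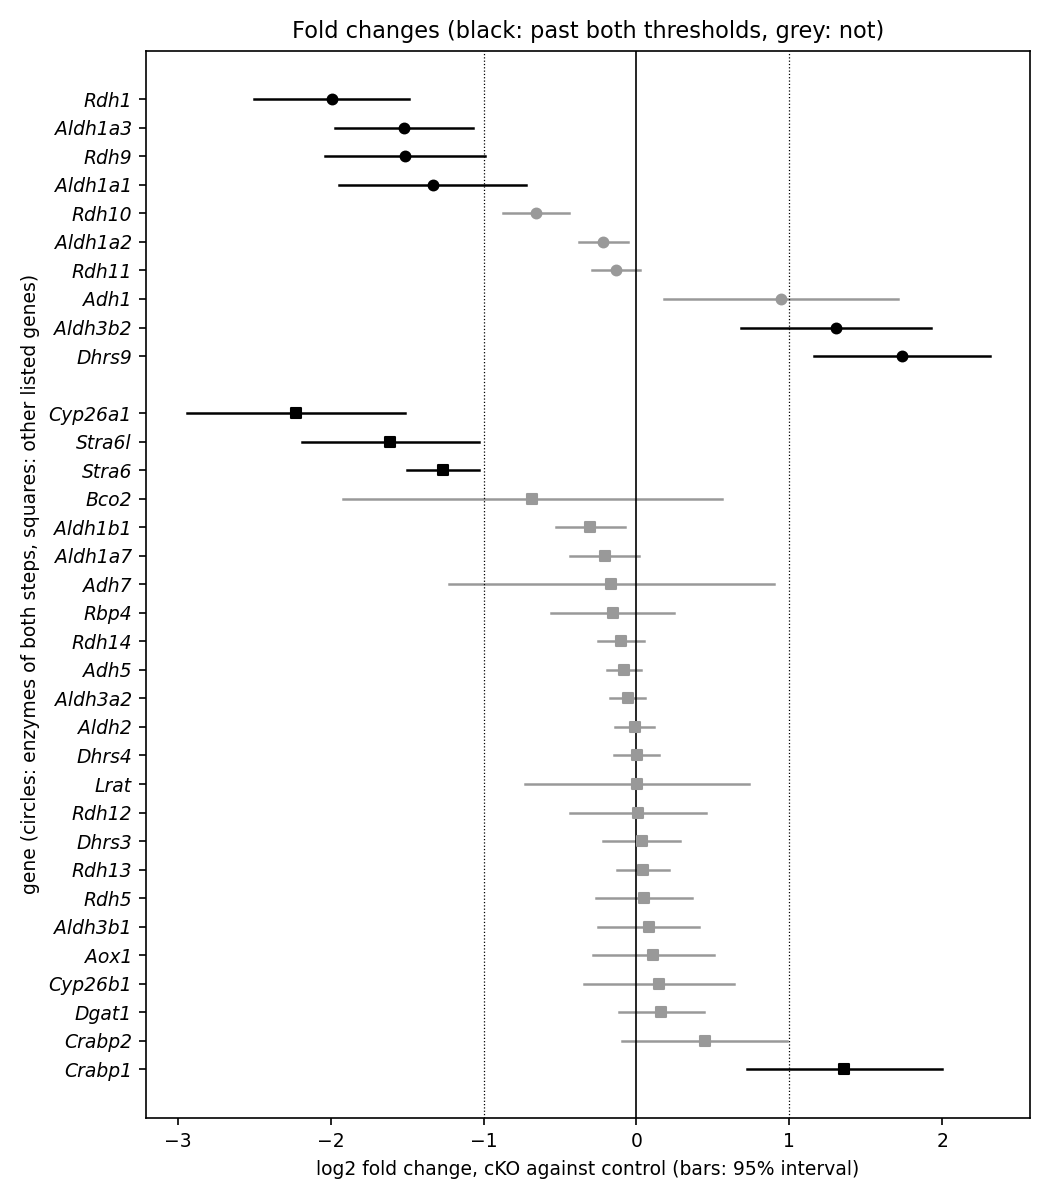
Log2 fold change of cKO against control (horizontal axis) with 95% intervals for the 10 enzymes (circles) and the genes of the other retinoid lists reported here (squares), black where both thresholds were passed, and dotted lines at a 2-fold change. The 10 enzymes spread from -1.99 (*Rdh1*) to 1.74 (*Dhrs9*), and most other genes lie near 0, apart from *Cyp26a1*, *Stra6l*, *Stra6* and *Crabp1*.

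The windows of 250 bases upstream of the annotated starts, from RefSeq (GRCm38.p6), are shown for 5 of the enzymes, 4 that moved past both thresholds and *Aldh1a2*, which did not. The table held 9 windows for 7 of the 10 enzymes and was not matched for *Rdh10*, *Aldh1a3* and *Aldh3b2*. Of 2 windows for *Aldh1a1*, the one at the start of the transcript used for its length is shown, which lies inside the gene span given above. The *Rdh1* window ends inside the *Rdh1* gene span given above. Capitals mark AGGTCA, the core of nuclear receptor sites, and TATAAA, the TATA box core, each searched on both strands, and overlapping matches run together.
*Rdh1* chr10:127759513-127759762 (+): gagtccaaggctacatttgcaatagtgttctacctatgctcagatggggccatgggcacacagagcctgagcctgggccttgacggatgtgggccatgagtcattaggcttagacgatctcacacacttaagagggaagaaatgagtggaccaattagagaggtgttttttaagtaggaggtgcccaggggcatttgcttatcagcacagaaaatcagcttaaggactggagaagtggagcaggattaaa
*Rdh9* chr10:127776155-127776404 (+): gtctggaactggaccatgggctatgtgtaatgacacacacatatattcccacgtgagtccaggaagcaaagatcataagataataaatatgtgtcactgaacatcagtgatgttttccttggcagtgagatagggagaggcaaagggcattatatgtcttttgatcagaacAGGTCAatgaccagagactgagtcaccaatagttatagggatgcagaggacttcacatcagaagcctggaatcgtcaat
*Dhrs9* chr2:69380212-69380461 (+): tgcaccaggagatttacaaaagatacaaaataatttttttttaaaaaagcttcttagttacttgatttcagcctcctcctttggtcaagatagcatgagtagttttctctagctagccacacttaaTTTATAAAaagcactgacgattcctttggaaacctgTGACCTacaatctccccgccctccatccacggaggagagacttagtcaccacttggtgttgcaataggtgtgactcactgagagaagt
*Aldh1a1* chr19:20601718-20601967 (+): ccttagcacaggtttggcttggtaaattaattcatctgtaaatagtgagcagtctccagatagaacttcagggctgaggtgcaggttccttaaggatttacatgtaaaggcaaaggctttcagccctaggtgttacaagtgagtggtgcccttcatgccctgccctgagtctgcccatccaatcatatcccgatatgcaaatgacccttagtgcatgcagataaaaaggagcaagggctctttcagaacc
*Aldh1a2* chr9:71215539-71215788 (+): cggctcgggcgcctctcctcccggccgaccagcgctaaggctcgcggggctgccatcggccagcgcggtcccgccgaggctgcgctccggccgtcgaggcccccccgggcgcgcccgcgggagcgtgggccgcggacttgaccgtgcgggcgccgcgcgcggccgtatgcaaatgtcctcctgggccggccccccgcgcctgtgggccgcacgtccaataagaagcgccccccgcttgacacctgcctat
The *Aldh1a2* window held 40 CpG dinucleotides, and at least 20 were found in 17.9% of 32851 RefSeq mouse windows of that length. The windows of *Rdh1*, *Rdh9*, *Dhrs9* and *Aldh1a1* held 2, 2, 3 and 1, and at most 5 were found in 49.6%. The other *Aldh1a1* window held 3. *Adh1* and *Rdh11*, which overlapped between genotypes, held 5 in the *Adh1* window and 9 and 7 in the 2 *Rdh11* windows. AGGTCA occurred once in *Rdh9*, once in *Dhrs9* and once in 1 of the *Rdh11* windows, and in 14% of all windows. TATAAA occurred in *Dhrs9* on both strands in overlapping positions, and in 12.4% of all windows. These matches describe letters only.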

How the data were processed

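RNA-seq was performed by the authors on PD10 whole uteri, 4 from controls and 4 from cKO mice, with TruSeq stranded mRNA libraries. Per the labels and methods, reads were trimmed with Trimmomatic, checked with FastQC, aligned to GRCm38 with HISAT2 and counted with featureCounts, and the authors deposited raw counts per Entrez gene. Tool versions, annotation release, strand setting and handling of reads that match several genes are not given in the sources used here. From the deposited comparison table only gene symbols were taken. Its fold changes, log2 CPM, F scores and p-values, and a normalized table, were not used.

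Counts were analysed with edgeR 4.0.16 in R 4.3.3 (limma 3.58.1 and DESeq2 1.42.0 for alternatives, Python 3.11.15, matplotlib 3.10.9 and Biopython 1.88 for figures and sequences). The filter kept genes whose CPM exceeded 0.2 in 4 or more libraries, TMM factors were applied, and glmQLFit and glmQLFTest with robust estimation were run over 16658 genes with Benjamini-Hochberg adjustment. Both thresholds means a change of more than 2-fold with an adjusted p below 0.05. The standard error is the size of the log2 fold change divided by the square root of F. CPM values are TMM-scaled, and SD is over n = 4 libraries. Transcript lengths are of the GENCODE M21 transcript paired with RefSeq. The 3-count floor of 0.0824 to 0.117 CPM covers counting error only. Counts of separate libraries differed beyond sampling noise (chi-square per gene 7.44 to 30.0). On simulated counts for 16658 genes, 195 of 200 genes changed by 2 on the log2 scale were recovered, with 1 false call. That change is larger than the change of any enzyme here, and genes were drawn independently, without a split within the cKO group. Recovery of smaller changes was not examined.

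All 10 enzymes are named, with the genes of the other retinoid lists past both thresholds and the gene of each list with the highest mean CPM, marker genes that move with a result, and *Ezh2*. A gene that this rule would name is not reported here. The members and lists were chosen with earlier results of these data known. From these libraries the study itself named all the enzymes past both thresholds here, among other genes. Replicate numbers were not used to pair the libraries. Deviations of same-numbered libraries from their group means correlated at 0.0409, 0.129, -0.0289 and 0.223. Such weak correlations cannot show that the numbers carry no pairing. Alternatives were another normalization, filter or tool, a replicate block, an adipocyte covariate and leaving out each library. Scores of 8 adipocyte genes used log2(CPM + 0.5).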

Additional observations from a re-analysis of the deposited data

Results flagged for a closer look

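In each group of 4 libraries, the gap between the highest or lowest library and its nearest neighbour was set against the whole range of the group and compared with Dixon's 95% critical value. Of 90 groups examined (levels and shares of the enzymes and levels of the other retinoid genes tested), 3 exceeded it, and chance gives about 1 in 20. *Adh1* was at 15.3 CPM in control 2 and at 8.56 to 8.77 CPM in the other controls, a gap of 0.969 of the range. The share of *Adh1* in the first step was likewise 15.9% in control 2 and 8.28% to 9.11% in the other controls (0.891 of the range). The share of *Aldh1a1* in the second step was 26.3% in control 1 and 32.9% to 33.5% in the other controls (0.913 of the range).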

How the results depend on the processing

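The count of enzymes past both thresholds was 6, and 5 or 6 with DESeq2 size factors, library totals alone, other filters, DESeq2 or limma-voom. It was 4 to 7 when single libraries were left out, with the lowest value without cKO 3 and the highest without cKO 4, 1 with the adipocyte covariate and 0 with cKO 4 alone against the controls. The 4 other retinoid genes past both thresholds became 3 to 4 without single libraries, 1 with the adipocyte covariate and 1 with cKO 4 alone, *Stra6* in both. The lone cKO library was assumed to vary like the controls, and a comparison of that size says nothing about stability. The covariate fit rests mostly on the same library, so calls lost in both are not separate results. *Adh1* changed sign, to -0.13 with the adipocyte covariate and -0.15 with cKO 4 alone. Of 238 values of single genes under alternatives, 200 kept direction and side of the threshold, 34 lost an adjusted p under 0.05, 2 gained it and 2 changed sign. The cause of the lost calls was not tested.

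Over all genes, 217 passed both thresholds, and 139 with a filter at CPM over 1, 34 with the adipocyte covariate, 143, 146 and 142 without control 1, cKO 1 or cKO 2, 336 without cKO 4 and 22 with cKO 4 alone. With the replicate block, 6 enzymes, 4 other retinoid genes and 253 of all genes passed. The block lowered the SE of *Rdh10*, *Adh1*, *Aldh1a1*, *Aldh1a2* and *Aldh1a3* (the last from 0.197 to 0.0763) and raised it for the other enzymes. Since 2 libraries correlated best with their own number, the block is given only here. Divided by transcript length, 12 of 20 shares of the enzymes moved by more than 1 SD. The same number did with merged exons, a length added after the data were seen. A mean of 4 libraries cannot move by 1 SD when 1 is left out, so that setting says nothing about the shares. Without *Rdh11*, which encodes chiefly a reductase, the sum shrinks and every other first-step share rises by construction. All 10 of these shares (each enzyme in both genotypes) moved by more than 1 SD, with *Rdh10* at 78.0% in controls and 58.5% in cKO. Depth limits *Rdh1*, *Rdh9*, *Dhrs9* and *Aldh3b2*, which had 12 to 150 counts per library.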
